A study of Mus musculus with 1507 samples.

Results

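Single-cell RamDA-seq of mouse ES cells on their way to primitive endoderm (PrE) cells held 72 protein-coding genes with a transient low at 12 h. They were chosen by their levels. The means over cells at 0 h and at 72 h had to be at least 5 TPM (the deposited unit, a length-scaled share of the RNA of a cell) and both at least 2 times the mean at 12 h, and genes for lysosomal enzymes were left out. Of 21971 protein-coding genes, 6932 had means of at least 5 TPM at 0 h and 72 h, and 77 of these (1.11%) met the thresholds. Leaving out the lysosomal enzyme genes among them gave the 72 genes described here. Because the levels at 0, 12 and 72 h chose these genes, they are given as a description with no test.

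The study used 5G6GR ES cells, a single mouse line with a randomly inserted *Gata6*-GR transgene, whose product is switched on by dexamethasone. All cells were grown without feeders in serum with leukemia inhibitory factor and puromycin, and dexamethasone took the place of blasticidin for differentiation. RamDA-seq, which copies RNA along its whole length with or without a poly(A) tail, was run on 92, 91, 93, 87 and 93 sorted cells of 0, 12, 24, 48 and 72 h, with untreated ES cells at 0 h. Untreated ES cells were also sorted in G1 (93 cells), S (91) and G2/M (93), and 9 wells held averaged lysate of G1 cells. ES cells and PrE cells (differentiated with dexamethasone) were further profiled on the 4 plates E1, E2, B1 and B2, which 2 experimenters prepared on separate days, and on the C1 device (16 ES and 39 PrE cells). Bulk libraries were made from 1 µg of ES cell RNA after rRNA depletion (rdRNA-seq, n = 3) or poly(A) selection (paRNA-seq, n = 3). No separate cultures are named for the times or phases, so each counts as 1 sample, and an SD over cells gives the spread between cells only.

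ES cells are held in the naive state by a network of transcription factors. Induced GATA6 drives them towards PrE, the extraembryonic layer that covers the epiblast and contributes to the yolk sac. Several of the genes are known from programs that respond to signals or nutrients: *Bhlhe40*, *Epas1*, *Bnip3* and *Ndrg1* from the response to low oxygen, *Kit*, *Igf1r* and *Ephb4* as receptor tyrosine kinases, and *Grn*, *Lamp2* and *Fnip2* from the lysosome and its signalling.

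Promoter sequences are shown for the members with the letters of the CLEAR core (GTCACGTG), part of the element by which TFEB and TFE3 bind genes of the lysosome. RefSeq promoters (build GRCm38.p6, 250 bases before to 50 after a start) were matched for 57 of the 72 genes. Searched on both strands, the E-box CACGTG stood in 11 of the 57 (19.3%), against 8.09% of the promoters of 27025 genes and 13.4% of those of 5385 expressed genes. The CLEAR core, which contains the E-box, stood in 4 (7.02%), against 2.55% and 5.89%. Capitals mark these letters, and all sequences run 5′ to 3′ along the strand of the gene. *Tmc6* lies on the minus strand (chr11:117780643-117780942), as do *Amdhd2* (chr17:24163684-24163983) and *Ankrd12* (chr17:66076997-66077296), and *Insig1* lies on the plus strand (chr5:28071162-28071461).
Tmc6: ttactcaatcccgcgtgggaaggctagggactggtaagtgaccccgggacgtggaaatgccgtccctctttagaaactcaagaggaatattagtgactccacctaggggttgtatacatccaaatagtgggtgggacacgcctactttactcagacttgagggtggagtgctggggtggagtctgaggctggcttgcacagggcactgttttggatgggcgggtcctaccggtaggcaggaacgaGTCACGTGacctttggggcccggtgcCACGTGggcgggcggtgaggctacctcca
Amdhd2: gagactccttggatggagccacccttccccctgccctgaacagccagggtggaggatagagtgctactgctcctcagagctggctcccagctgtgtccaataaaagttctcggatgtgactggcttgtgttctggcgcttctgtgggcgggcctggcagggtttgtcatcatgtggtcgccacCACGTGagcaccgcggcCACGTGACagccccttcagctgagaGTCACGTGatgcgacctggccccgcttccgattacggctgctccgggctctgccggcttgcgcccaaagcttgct
Ankrd12: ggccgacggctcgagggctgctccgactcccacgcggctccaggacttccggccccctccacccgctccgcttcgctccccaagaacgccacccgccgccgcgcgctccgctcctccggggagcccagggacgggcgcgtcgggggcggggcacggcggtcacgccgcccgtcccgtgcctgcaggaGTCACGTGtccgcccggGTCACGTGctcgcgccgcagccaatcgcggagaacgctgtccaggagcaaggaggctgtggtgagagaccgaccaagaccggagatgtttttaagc
Insig1: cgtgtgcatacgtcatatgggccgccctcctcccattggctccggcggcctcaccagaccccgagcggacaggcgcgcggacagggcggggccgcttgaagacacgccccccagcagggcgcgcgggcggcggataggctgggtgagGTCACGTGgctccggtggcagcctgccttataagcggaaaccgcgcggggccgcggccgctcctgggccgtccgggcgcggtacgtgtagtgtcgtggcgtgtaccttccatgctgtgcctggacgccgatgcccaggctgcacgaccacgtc

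In these windows the CLEAR core occurs 2 times in *Amdhd2* and *Ankrd12* and 1 time in *Tmc6* and *Insig1*. The GC box GGGCGG was present in 45 of the 57 promoters (78.9%, against 73.3% of expressed genes), CCAAT in 30 (52.6%, against 44.05%) and the GATA letters AGATAA in 7 (12.3%, against 6.76%). Over the promoters of all 27025 genes these shares were 38.2%, 41.1% and 12.7%. The GATA letters were thus no more frequent in members than in all promoters. Of the 20 motifs searched, others were rarer than in expressed genes, such as the ETS letters CCGGAAGT in 2 (3.51%, against 12.3%) and NRF1 and YY1, each in 0 (against 2.75% and 2.62%). Over all promoters these 3 shares were 4.31%, 1.07% and 0.755%. A match of letters describes the window and not a bound site.

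The labels of the times held for defining genes of both cell types, apart from *Klf4*. This ES cell gene is a member and had a higher mean at 72 h than at 0 h. The PrE genes *Gata4*, *Sox17* and *Dab2* had means of 0.540, 0.0508 and 0.250 TPM at 0 h, 43.2, 35.2 and 30.8 TPM at 12 h and 213, 109 and 262 TPM at 72 h. *Gata6*, with which RNA of the transgene may be counted, had 44.9, 64.8 and 157 TPM. The ES cell genes *Pou5f1* and *Nanog* had 276 and 110 TPM at 0 h, 190 and 8.05 TPM at 12 h and 30.5 and 1.26 TPM at 72 h. The median number of protein-coding genes above 0 per cell was 12810.5 at 0 h and 12785 at 12 h, and lay between 12237 and 13019 at the other times.

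Part of the 12 h cells stood apart. Another deposited table of the time course, on merged gene models, holds only 68 of the 91 cells of 12 h, against 90 of 92 at 0 h and 91 of 93 at 72 h. The 23 cells of 12 h outside that table had a median of 12278 genes above 0, against 12946 in the other 12 h cells. *Rn18s-rs5*, an entry related to 18S rRNA, held 5.99% of their TPM against 3.92%. Another entry, *Gm26917*, went the other way, with 1.40% against 1.66%. Their means were lower in 98.2% of the 6932 genes, with a median ratio of 0.588 to the other cells, and in 69 of the 72 members, with a median ratio of 0.565. With only the cells in that table, 58 genes met the thresholds, 56 of them members. The 16 members lost were *Dixdc1*, *Usp11*, *Ddx26b*, *Cracr2b*, *Lamp2*, *Tiparp*, *AI413582*, *Lnpep*, *Schip1*, *Insig1*, *Crip1*, *Flot1*, *Dlg5*, *Ypel3*, *Pitpnm2* and *Fnip2*, whose smaller ratio to 12 h then ran from 1.72 (*Fnip2*) to 1.98 (*Flot1*).

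The low level was seen across cells. Over the members, the mean of log2(TPM + 1) in a cell had a median of 3.72 at 0 h, 2.36 at 12 h, 2.91 at 24 h, 3.62 at 48 h and 4.22 at 72 h. Over all 6932 genes these medians were 4.45, 4.56, 4.69, 4.64 and 4.49. The 12 h cells ran from 1.04 to 2.97 and the 0 h cells from 2.87 to 4.24, and 91 of 92 cells of 0 h and all 93 of 72 h lay above every 12 h cell. At 24 h, 39 of 93 cells did, and at 48 h 80 of 87. The genes were chosen by low means over these same 12 h cells, so nothing is read from these counts. Among 12 h cells in the merged table the median was 2.42, against 1.90 in the 23 others. Across cells of 1 time this level went with the number of genes above 0 in the cell, with a Pearson's r of 0.58 at 0 h, 0.74 at 12 h and 0.17 at 72 h, which describes measures that share a library.

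**Figure D1:**
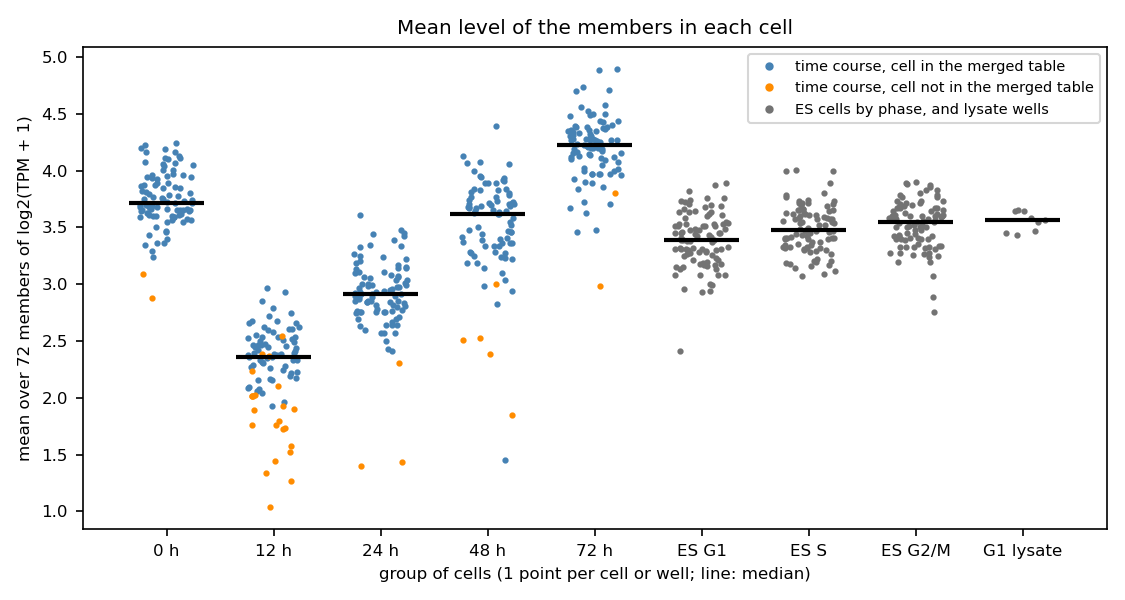
Mean over the 72 members of log2(TPM + 1) in each cell or lysate well (y axis) by time or phase (x axis), with 1 point per cell and the median as a line. Cells of 12 h sit between 1.04 and 2.97, below nearly all cells of 0 h and all cells of 72 h, as the choice of genes favours.

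Fewer cells with a value and lower values in those cells both occurred. All 72 genes had a lower mean at 12 h than at 0 h among cells above 0, and 45 also had a smaller share of such cells. For the median gene, 100% of cells were above 0 at 0 h and at 72 h and 97.8% at 12 h, and 44 genes were above 0 in at least 95% of cells at both 0 h and 12 h. As the 12 h mean was chosen to be low, nothing is read from these counts, and they were not made over other genes. On the log2(mean TPM + 1) scale the median drop from 0 h to 12 h was 1.27, from 0.79 (*Pitpnm2*) to 3.08 (*Bhlhe40*).

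**Figure D2:**
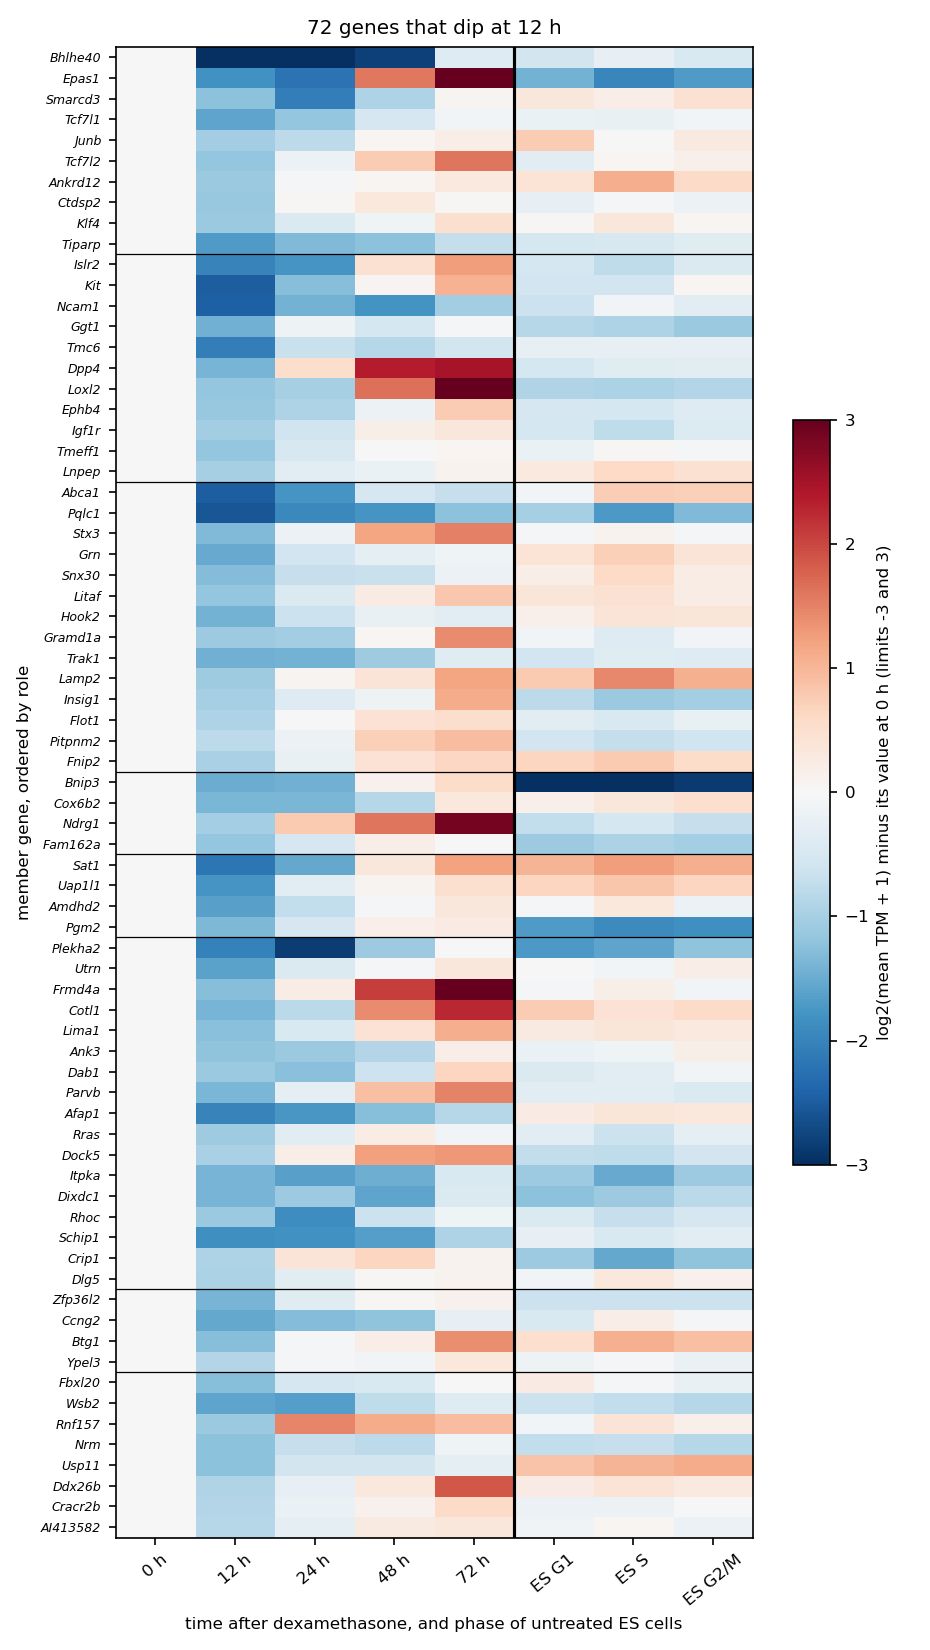
The 72 members (rows) at 5 times and in 3 phases of ES cells (columns), coloured by log2(mean TPM + 1) minus its value at 0 h. The 12 h column is low throughout, as the choice of genes requires, and the other columns differ between genes.

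Transcription and chromatin factors made up 10 members, with a median of 17.98 TPM at 0 h, 5.63 at 12 h, 8.63 at 24 h, 15.9 at 48 h and 28.7 at 72 h. *Bhlhe40* (chr6:108660629-108666925), a basic helix-loop-helix repressor known from the circadian clock and hypoxia, had 45.8 ± 30.5 TPM at 0 h (mean ± SD over cells), 4.54 ± 4.70 at 12 h, 2.00 ± 3.46 at 24 h, 5.76 ± 8.07 at 48 h and 34.6 ± 27.3 at 72 h. Its level was thus lowest at 24 h, when 45 of 93 cells (48.4%, exact binomial 95% interval 37.9 to 58.99%) were above 0, against 81 of 91 at 12 h (89.01%, 80.7 to 94.6%) and 92 of 92 at 0 h (100%, 96.1 to 100%). Such intervals cover counting error only. *Epas1* (chr17:86753907-86833410), which encodes HIF-2α, had 15.1 ± 6.61, 3.54 ± 5.82, 2.45 ± 3.56, 46.9 ± 44.6 and 150 ± 70.2 TPM at the 5 times, so that its late level far exceeded the one at the start. *Klf4* (chr4:55527143-55532466), a factor of the naive state, had 38.9 ± 23.1, 17.6 ± 14.02, 28.4 ± 21.9, 35.7 ± 24.2 and 54.8 ± 27.9 TPM. *Tcf7l1*, a repressor in the Wnt pathway, had 24.2 ± 11.1 TPM at 0 h, 7.40 ± 4.73 at 12 h and 22.8 ± 8.61 at 72 h. *Junb*, an AP-1 factor, had 6.53 ± 5.55, 2.64 ± 3.12 and 7.67 ± 4.72 TPM at those times. Of these factors *Bhlhe40* and *Tcf7l1* had a mean at 72 h below that at 0 h. *Smarcd3*, a subunit of chromatin remodelling complexes, had 5.77 ± 3.52 TPM at 0 h, 1.87 ± 2.49 at 12 h, 0.611 ± 1.09 at 24 h and 6.14 ± 5.36 at 72 h.

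Receptors, surface proteins and matrix enzymes made up 11 members. *Kit* (chr5:75574916-75656722), the receptor for stem cell factor, had 48.7 ± 30.6 TPM at 0 h, 7.98 ± 9.51 at 12 h, 19.4 ± 19.5 at 24 h, 51.2 ± 43.97 at 48 h and 101.1 ± 55.2 at 72 h. *Dpp4*, a surface dipeptidyl peptidase, had 7.13 ± 8.40, 2.10 ± 3.85, 10.6 ± 12.8, 40.7 ± 32.2 and 43.8 ± 26.8 TPM. The return of *Dpp4* was early, while that of *Loxl2*, a lysyl oxidase that crosslinks matrix, was late. *Loxl2* had 6.28 ± 3.65, 2.25 ± 2.02, 2.67 ± 1.99, 21.8 ± 32.9 and 142 ± 84.5 TPM. *Islr2*, a leucine-rich repeat membrane protein, had 5.36 ± 6.42 TPM at 0 h, 0.581 ± 0.997 at 12 h and 14.2 ± 8.79 at 72 h, and was above 0 in 56 of 91 cells at 12 h. *Ncam1*, a neural cell adhesion molecule, differed from these in its partial return, with 14.5 ± 9.48, 1.85 ± 2.55, 4.78 ± 6.01, 3.46 ± 4.21 and 6.49 ± 7.68 TPM. *Ggt1*, a gamma-glutamyltransferase of glutathione breakdown, was above 0 in 75 of 92 cells at 0 h, 38 of 91 at 12 h and 56 of 93 at 72 h.

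Lysosome, membrane traffic and lipid handling accounted for 14 members. *Grn* (chr11:102430315-102437048), which encodes progranulin, had the highest mean of all members at 0 h and was above 0 in every cell of the time course. It had 134 ± 55.0, 46.3 ± 27.3, 89.5 ± 46.8, 111 ± 70.8 and 122 ± 66.5 TPM at the 5 times. *Abca1* (chr4:53030787-53159895), the exporter of cholesterol to apolipoproteins, had 21.7 ± 15.4, 3.05 ± 3.02, 5.69 ± 6.56, 15.1 ± 15.1 and 12.96 ± 9.22 TPM. *Lamp2*, a lysosomal membrane protein, had 26.1 ± 12.3 TPM at 0 h, 12.0 ± 7.81 at 12 h, 27.5 ± 13.7 at 24 h and 60.04 ± 24.3 at 72 h. *Insig1*, which retains the SREBP activating complex in the ER, had 30.4 ± 21.04, 14.8 ± 11.1, 23.2 ± 20.1 and 67.4 ± 53.6 TPM at those times. Both of these were among the genes that did not pass with only the cells of the merged table. Just inside the thresholds stood *Ypel3*, *Pitpnm2* and *Fnip2*, with a smaller ratio to 12 h of 2.03, 2.02 and 2.01, and just outside *Bri3*, *Map3k1* and *Mtss1*, with 1.99, 1.99 and 1.98.

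Genes of metabolism and of mitochondria included some of the deepest lows. *Sat1* (chrX:155213132-155216449), the acetyltransferase of polyamine breakdown, had 28.8 ± 16.7, 5.62 ± 4.58, 9.34 ± 5.37, 36.7 ± 29.8 and 67.3 ± 41.6 TPM. *Uap1l1*, a relative of the enzyme that makes UDP-N-acetylglucosamine, had 42.5 ± 25.7, 11.8 ± 9.68, 34.1 ± 23.2, 45.3 ± 58.4 and 59.7 ± 52.01 TPM. *Amdhd2*, an N-acetylglucosamine-6-phosphate deacetylase, had 27.7 ± 15.3 TPM at 0 h, 8.30 ± 5.31 at 12 h and 35.6 ± 18.5 at 72 h. These 3 enzymes had higher means at 72 h than at 0 h. *Pgm2*, a gene of sugar metabolism, had 10.5 ± 5.69, 3.52 ± 2.59 and 12.7 ± 5.28 TPM at these times. *Bnip3* (chr7:138890836-138909519), a mitophagy receptor, stayed low for longer, with 42.4 ± 26.9, 14.4 ± 16.8, 14.9 ± 13.2, 46.1 ± 32.8 and 62.97 ± 36.9 TPM at the 5 times. *Ndrg1*, a stress-responsive gene, had 8.01 ± 9.18, 3.44 ± 4.39, 14.5 ± 20.6, 26.4 ± 36.95 and 65.1 ± 59.99 TPM.

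**Figure D3:**
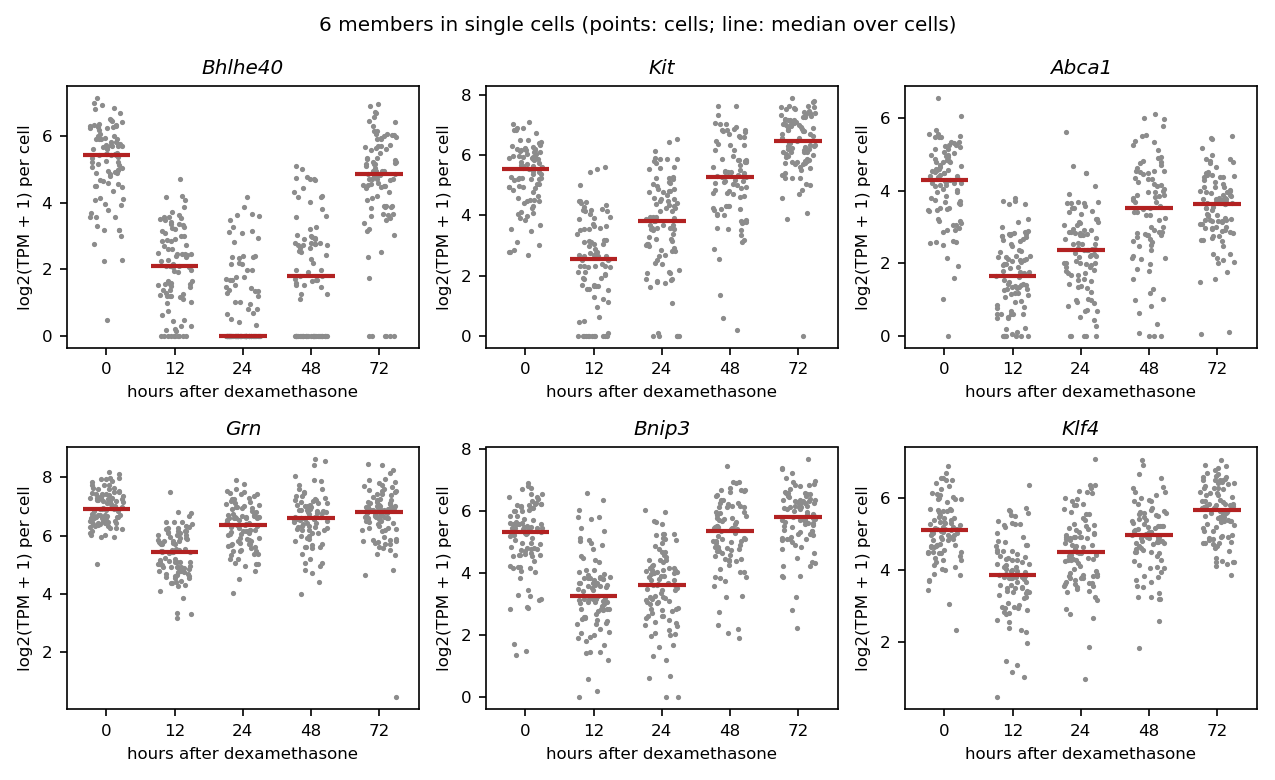
Level of *Bhlhe40*, *Kit*, *Abca1*, *Grn*, *Bnip3* and *Klf4* as log2(TPM + 1) (y axes) in each cell (points) by hours after dexamethasone (x axes), with the median over cells as a red line. Cells at 0 are frequent at 24 h for *Bhlhe40*, while *Grn* is above 0 in every cell.

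The largest group, 17 members, was known from actin, adhesion or small GTPase signalling, a grouping made after the members were known. *Parvb*, an integrin-linked adaptor, had 77.5 ± 32.7, 29.4 ± 14.3, 63.5 ± 30.1, 146 ± 57.5 and 219 ± 57.4 TPM. *Frmd4a*, a scaffold of epithelial polarity, had 7.43 ± 3.92, 2.46 ± 2.94, 8.82 ± 10.5, 34.7 ± 28.4 and 97.5 ± 59.4 TPM. *Cotl1*, an actin-binding protein, had 15.1 ± 6.74, 5.08 ± 2.95, 8.14 ± 5.32, 42.05 ± 25.98 and 76.7 ± 23.3 TPM. All 3 ended higher than they began, whereas *Plekha2*, a phosphoinositide-binding protein, had 14.8 ± 10.2, 2.88 ± 4.94, 1.21 ± 2.35, 6.41 ± 7.67 and 14.6 ± 14.3 TPM. *Utrn*, the dystrophin relative utrophin, had 12.1 ± 4.61 TPM at 0 h, 3.28 ± 2.17 at 12 h and 15.7 ± 6.30 at 72 h. *Itpka*, a kinase of inositol trisphosphate, had 7.31 ± 4.56, 2.18 ± 2.21, 1.69 ± 1.67, 2.03 ± 2.51 and 5.03 ± 4.92 TPM, and was thus still near its 12 h level at 48 h. Among the remaining members, *Zfp36l2*, which promotes decay of AU-rich mRNA, had 15.02 ± 5.98, 5.09 ± 3.10 and 16.6 ± 7.64 TPM at 0, 12 and 72 h. *Rnf157*, a ubiquitin ligase, had its highest level at 24 h, with 16.8 ± 12.3, 7.20 ± 5.78, 48.4 ± 43.3, 37.4 ± 46.3 and 32.8 ± 33.6 TPM at the 5 times.

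The times that the choice did not use showed how fast members came back. At 24 h, 22 of the 72 were at least 2 times their 12 h level, against 4.62% of the 6932 genes, and at 48 h 50 were, against 10.4%. As the 12 h level was chosen to be low, nothing is read from these counts. In 63 members 12 h was the lowest of the 5 times (25.1% of the 6932 genes), and in 8 it was 24 h (2.50%), namely *Bhlhe40*, *Plekha2*, *Epas1*, *Smarcd3*, *Dab1*, *Wsb2*, *Itpka* and *Rhoc*. In 21 members both 24 h and 48 h were under 2 times 12 h (89.2% of the 6932 genes). These counts also rest on the choice of a low 12 h level, and nothing is read from their distance to the 6932 genes. At 72 h, 20 members were at least 2 times their 0 h level (background 11.9%). Another 3 (*Ncam1*, *Pqlc1* and *Schip1*) were at least 2-fold below it (background 7.75%). The choice of genes used both levels, so these counts are a description.

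Untreated ES cells were also measured in 3 phases. In 39 members the means in G1, S and G2/M were each at least 2 times the 12 h mean (background 4.04%), and in 36 with the 12 h cells of the merged table. Nothing is read from this count either, as the 12 h mean was chosen to be low. *Grn* had 179 ± 63.8 TPM in G1, 220 ± 87.97 in S and 174 ± 82.5 in G2/M, and *Bhlhe40* had 30.9 ± 30.2, 38.2 ± 35.8 and 33.1 ± 33.99. These levels were nearer to 0 h than to 12 h. In 9 members each phase was at least 2-fold below 0 h (background 0.938%): *Plekha2*, *Epas1*, *Ggt1*, *Pqlc1*, *Pgm2*, *Bnip3*, *Loxl2*, *Itpka* and *Crip1*. Of these, *Pqlc1* was also among the 39. *Bnip3* had 3.85 ± 5.79 TPM in G1, 4.04 ± 4.35 in S, 4.92 ± 12.0 in G2/M and 4.64 ± 3.28 in lysate wells, and *Epas1* had 5.01 ± 3.89, 3.12 ± 2.62 and 3.98 ± 2.60 in the phases. For *Bnip3*, *Pgm2* and *Crip1* each phase was at or below 12 h (background 31.5%). The level of untreated cells thus differed for these genes between the 0 h sample and the phase samples. What sets these samples apart was not tested, and since 0 h was chosen to be high, no excess is read from the count. *Sat1*, with 59.2 ± 33.4, 70.5 ± 35.03 and 61.9 ± 30.2 TPM, was the single member at least 2 times its 0 h level in every phase.

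The plates allowed a comparison of ES and PrE cells over 4 preparations, which the choice of genes did not use. Whether the plates hold separate cultures is not stated, so their p-values measure a spread between preparations that may be technical. With the plate as the replicate, limma was run on log2(plate mean TPM + 1) with Benjamini-Hochberg adjustment over 16202 genes. These were genes of all types, noncoding ones among them, while all members are protein-coding, so their shares are no matched background. The fit called 36 members higher in PrE than in ES cells, against 34.7% of all genes. It called 11 lower, against 24.4%, and did not call 25. *Epas1* had plate means of 8.88, 7.88, 8.20 and 7.97 TPM in ES cells (E1, E2, B1 and B2) and 151, 144, 125 and 153 in PrE cells. The groups lay far apart, with a log2 fold change of 3.96 ± 0.09 (SE, limma adjusted p = 5.27e-09). *Frmd4a* had 6.34, 6.18, 5.34 and 4.92 TPM in ES and 93.3, 97.5, 125 and 93.8 in PrE cells, a log2 fold change of 3.94 ± 0.12 (limma adjusted p = 2.38e-08). *Dpp4* had 2.82, 2.46, 3.26 and 2.75 against 54.5, 46.98, 55.4 and 57.96 TPM, which gave 3.84 ± 0.10 (limma adjusted p = 9.67e-09). *Bnip3* was also higher in every PrE plate, with 12.1, 10.2, 12.8 and 10.9 against 113, 102.99, 110 and 96.5 TPM and a log2 fold change of 3.10 ± 0.09 (limma adjusted p = 2.16e-08).

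*Loxl2* depended on near-empty wells. Its ES plate means were 4.83, 4.48, 4.32 and 139 TPM, and its PrE plate means 157, 153, 132 and 162 TPM, which gave 3.61 ± 0.98 (limma adjusted p = 0.0116). The plates held 22 wells with under 1000 protein-coding genes above 0, 8 of them labelled ES on plate B2 and 5 ES on B1. Without these wells the B2 ES mean of *Loxl2* was 4.52 TPM and the log2 fold change 4.81 ± 0.09 (limma adjusted p = 2.66e-10), a choice made after seeing the data. *Stx3*, a plasma membrane syntaxin, named after its values were seen, was not called with all wells (0.57 ± 0.64, limma adjusted p = 0.471) and was called without them (1.39 ± 0.10, limma adjusted p = 1.10e-06).

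Members lower in PrE cells had smaller differences. *Ncam1* had 20.7, 16.96, 16.6 and 41.6 TPM in ES and 4.36, 5.41, 5.60 and 3.92 in PrE cells, a log2 fold change of -2.01 ± 0.27 (limma adjusted p = 0.000221), and -1.69 ± 0.11 without the 22 wells. *Usp11*, a deubiquitinase, had -1.15 ± 0.13 (limma adjusted p = 6.11e-05) and *Afap1*, an actin filament adaptor, -1.09 ± 0.09 (9.56e-06). *Grn* had 215, 230, 253 and 526 TPM in ES and 130, 136, 167 and 166 in PrE cells, with -0.93 ± 0.27 (limma adjusted p = 0.0157) and -0.66 ± 0.12 without the 22 wells (0.000968). All 4 PrE plates thus lay below all 4 ES plates for *Grn*. *Hook2*, a microtubule linker, had -0.66 ± 0.09 (limma adjusted p = 0.000216). *Klf4*, at 0.22 ± 0.11, was not called (limma adjusted p = 0.113). Of the 36 called higher, 31 also had a higher mean at 72 h than at 0 h, the others being *Bhlhe40*, *Fam162a*, *Ggt1*, *Plekha2* and *Rras*. Of the 11 called lower, 10 had a lower mean at 72 h, the other being *Uap1l1*. The paper states that these plates were made with a modified version of its library protocol. Such agreement was not counted over all genes called.

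**Figure D4:**
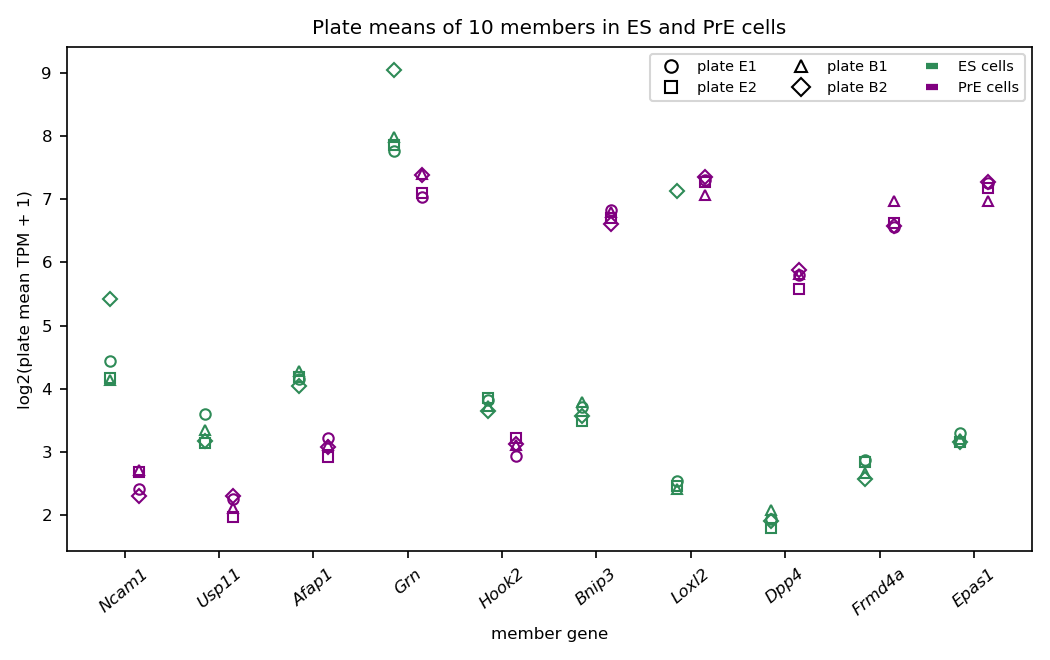
Members in ES and PrE cells of the 4 plates, on a log2 scale. In the limma fit, *Epas1*, *Frmd4a*, *Dpp4*, *Loxl2* and *Bnip3* had log2 fold changes above 3. *Ncam1* had the lowest value, -2.01.

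On the C1 device, with 1 sample per cell type and no test, 21 members were at least 2 times higher in PrE than in ES cells (background 13.2%) and 4 at least 2-fold lower (background 5.84%), namely *Ncam1*, *Pqlc1*, *Afap1* and *Schip1*. *Epas1* had 21.3 ± 6.64 TPM in ES and 179 ± 121 in PrE cells, *Loxl2* 6.24 ± 4.04 and 96.2 ± 81.03, and *Ncam1* 19.4 ± 13.001 and 6.61 ± 7.46. These 3 differed in the same direction as on the plates.

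Bulk libraries showed how far the RNA of the members was retained by poly(A) selection. The 6 libraries held 7395211 to 8962910 estimated counts. Whether these libraries come from separate cultures is not stated, so their p-values measure a spread that may be technical. In edgeR's quasi-likelihood test with Benjamini-Hochberg adjustment, 11 members were higher in rdRNA-seq than in paRNA-seq, against 23.8% of 14347 genes. Another 31 were lower, against 26%, and 30 were not called. The 14347 genes were also of all types, noncoding ones among them, so their shares are no matched background. Levels are given as CPM, which are counts scaled to the library size after its adjustment by edgeR's TMM scaling. *Tcf7l1* had 15.9, 18.7 and 19.6 CPM in rdRNA-seq and 78.9, 75.8 and 83.4 in paRNA-seq. Its log2 fold change was -2.13 ± 0.07 (edgeR adjusted p = 1.10e-09). *Grn* had 50.5, 45.6 and 44.6 against 135, 130 and 143 CPM, with -1.53 ± 0.06 (edgeR adjusted p = 1.85e-09), and *Loxl2* had -1.38 ± 0.08. In the other direction, *Amdhd2* had 26.6, 27.8 and 30.2 against 16.6, 17.8 and 18.9 CPM, with 0.67 ± 0.08 (edgeR adjusted p = 4.06e-05). *AI413582*, at 1.01 ± 0.20 (0.00127), rested on 28 to 47 counts per library, and *Crip1* had 0.56 ± 0.13 (0.00345). The split depended on the scaling: by library size alone, which put the median of all genes at -0.31 instead of 0.01, 2 members were higher (9.75% of all genes) and 57 lower (53.4%).

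**Figure D5:**
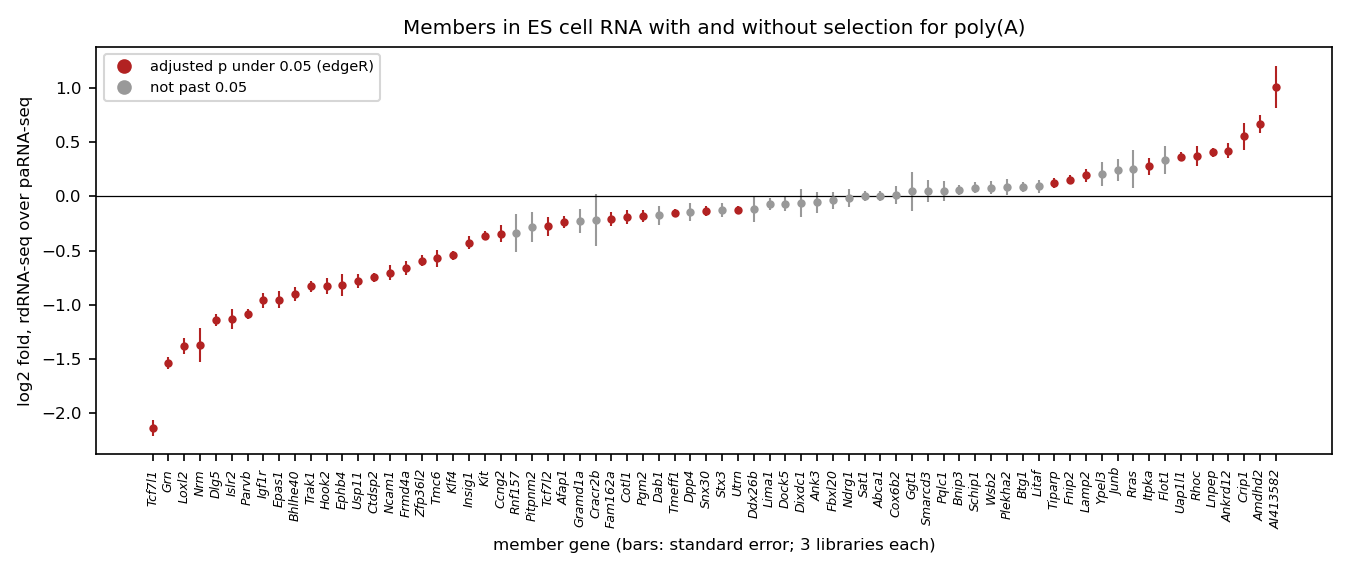
Log2 fold change of the members between rdRNA-seq and paRNA-seq of ES cell RNA (points, with standard errors as bars, 3 libraries each), ordered by value, with those at an edgeR adjusted p under 0.05 in red. Values run from -2.13 (*Tcf7l1*) to 1.01 (*AI413582*).

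By structure, the members had a main transcript with a median length of 2396 bases and 6.5 exons, and a gene span of 39877 bases, against 1733.5 bases, 6 exons and 23675.5 bases over the 6932 genes. They lay on 18 chromosomes. In 59 the transcript with the highest mean at 0 h was of a coding type, and in 63 the same transcript led at 72 h. Summed over coding transcripts alone, 67 members still had both ratios at 2 or more, the others being *Schip1*, *Insig1*, *Dlg5*, *Pitpnm2* and *Fnip2*. In *Kit* the leading transcript was a retained-intron type of 392 bases, with 17.04 TPM at 0 h, 2.71 at 12 h and 38.04 at 72 h, and the coding transcripts of *Kit* summed to 16.98, 2.36 and 36.4 TPM. Estimates for short transcripts within a gene are uncertain, since they share sequence with longer ones.

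Gene lists placed the members beside their pathways. Of 7884 genes of at least 5 TPM at 0 h, 7.20% were at least 2-fold lower at 12 h and 1.80% at least 2-fold higher. The lower share was 12 of 19 measured naive ES cell factors (*Klf4* is a member), 8 of 11 immediate-early genes (*Junb*), 6 of 38 genes of the lysosomal membrane and its biogenesis (*Grn* and *Lamp2*), 2 of 18 genes of cholesterol and LXR (*Abca1* and *Insig1*) and 4 of 9 glucocorticoid targets, none a member. Among 20 ribosomal protein genes and 20 of mitochondrial electron transport 0 were, and of 7 measured PrE markers 6 were at least 2-fold higher. Lysosomal enzyme genes were lower in 8 of 37. The list of the actin cytoskeleton held no member, and of its 18 measured genes 1 was lower and 2 were at least 2-fold higher. Dexamethasone also acts on the receptor of the cell, and this cannot be told apart from the transgene. Of markers of other cells, 1 of 2 trophoblast, 0 of 1 totipotent-like and 2 of 2 mesoderm and ectoderm genes at this level were lower, and the other trophoblast gene was at least 2-fold higher. In lists added after the members were known, the lower genes were 7 of 20 hypoxia-induced genes (members *Bhlhe40*, *Epas1*, *Bnip3*, *Ndrg1* and *Fam162a*), 7 of 15 FoxO targets (*Ccng2*, *Btg1*, *Igf1r*, *Klf4* and *Ypel3*), 5 of 16 genes around TFE3 and TFEB (*Abca1*, *Grn*, *Litaf*, *Lamp2* and *Fnip2*) and 5 of 15 of sugar and hexosamine metabolism (*Uap1l1*, *Amdhd2* and *Pgm2*). With only the cells of the merged table, the count of lower genes was 3 instead of 5 around TFE3 and TFEB and 1 instead of 2 for cholesterol and LXR. It was 6 instead of 8 for lysosomal enzymes and 5 instead of 6 for the lysosomal membrane. For immediate-early genes it was 7 instead of 8, and for FoxO targets 6 instead of 7. In the other lists given here it did not change. Over all genes 466 instead of 568 were lower, and 193 instead of 142 at least 2-fold higher. As the members helped to choose the added lists, the counts in those lists are no independent evidence.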

How the data were processed

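TPM values were deposited by the authors per transcript of GENCODE vM9 (mm10), made with Sailfish from trimmed RamDA-seq reads. They were summed here per gene, and the members were chosen among protein-coding genes. Estimated counts of the bulk libraries were also deposited by the authors (Sailfish), and were summed per gene and rounded here; 8 columns of other methods in that table were not used. The authors defined outlier cells by few uniquely mapped reads or a high share of rRNA reads. The members and lists were chosen with earlier results of these data known, and the role groups after the members were known. Plate means were compared with limma 3.58.1 (pseudocount 1 TPM, mean of at least 1 TPM, trend) and bulk counts with edgeR 4.0.16 (TMM, filterByExpr), both two-sided and called at adjusted p of 0.05, in R 4.3.3, after both scripts were tested on simulated data. Named were the 15 members of at least 10 TPM with the largest smaller ratio, the 5 highest at 0 h, members of the 21 main lists, those at the edge of the thresholds, and those with the most extreme values at 24 h and 48 h, on the plates (5 each way) and in bulk (3 each way), and others were named after their values were seen. Deviations of ES and PrE means from the same plate correlated at 0.032 to 0.0829, and plates are preparation batches per the labels. Alternatives covered the average over cells, the gene models, thresholds, cell and well filters, pseudocount, scaling, DESeq2 1.42.0, blocks and left-out replicates.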

Additional observations from a re-analysis of the deposited data

Results flagged for a closer look

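Among 86 groups of 4 plate means of the 43 named members, 11 had 1 plate far from the other 3, where chance gives about 1 in 20. In ES cells of plate B2, *Utrn* had 67.3 TPM (others 12.3 to 15.7), *Grn* 526 (215 to 253), *Lamp2* 119 (37.5 to 43.5), *Loxl2* 139 (4.32 to 4.83) and *Ncam1* 41.6 (16.6 to 20.7). In ES cells of plate B1, *Fnip2* had 93.05 TPM (others 25.6 to 32.6). Without the 22 wells of under 1000 genes, these plate means were 14.1 TPM for *Utrn*, 259 for *Grn*, 41.1 for *Lamp2*, 4.52 for *Loxl2*, 17.1 for *Ncam1* and 30.7 for *Fnip2*.

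In PrE cells, *Frmd4a* was high on plate B1 with 125 TPM (others 93.3 to 97.5) and *Dixdc1* on plate E1 with 7.35 (4.59 to 4.70). Low plate means were those of *Crip1* on B2 with 22.2 TPM (others 24.7 to 25.2), *Smarcd3* on E1 with 3.77 (4.397 to 4.51) and *Rhoc* on B1 with 7.91 (9.39 to 9.41).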

How the results depend on the processing

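The number of genes that met the thresholds was 72 and became 47 (46 of them members) with the merged gene models, 264 at a fold of 1.5, 18 at a fold of 3, 183 at a level of 1 TPM and 17 at 20 TPM. With only the 23 cells of 12 h outside the merged table it was 815, and with only the cells in it 58, both chosen after seeing the data. It was 77 with medians over cells (57 shared), 70 without cells of few genes and 70 after rescaling. On the plates, members called higher and lower numbered 36 and 11 in the limma fit, 33 to 35 and 8 to 12 without 1 plate each, and 37 and 11 with the plate as a replicate block. They were 38 and 13 without near-empty wells (chosen after seeing the data), where *Fnip2* moved from -0.11 to 0.28 (limma adjusted p = 0.0116). *Loxl2* missed the threshold without E1, E2 or B1 (3.21 to 3.26) and without the filter on low values, and *Grn* without that filter. With plate means of log values *Abca1*, *Tmc6* and *Grn* missed it, as did *Tmc6* without E2 or B1, while *Klf4* was called without E1 (0.33). The median SD between plates was 0.140 to 0.183 without 1 plate each. In bulk, members higher in rdRNA-seq numbered 11, against 2 by library size alone, 7 with DESeq2, 7 with genes of any count and 9 to 11 without 1 library each. Members lower numbered 31, against 57 by library size alone, 24 with DESeq2, 34 with genes of any count and 29 to 30 without 1 library each. The replicate block gave 13 and 31, and same-numbered libraries did not deviate together (r from -0.0209 to 0.025). The causes of these shifts were not tested. The depth behind a TPM value of a cell is unknown, so a value of 0 sets no limit.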
